A study of Mus musculus with 4 samples.

Results

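The 44 genes described here encode NRF2, its inhibitor KEAP1 and the enzymes of glutathione synthesis, thioredoxin reduction, peroxide and superoxide removal, NADPH supply, quinone and haem breakdown, iron storage and conjugate export. They were chosen by name from a written list, with earlier results of these data known, and make up 44 of the 25814 genes in the tables. All 44 symbols were found once each. NRF2, encoded by Nfe2l2, is a transcription factor that KEAP1 holds at low levels by directing it to degradation. Electrophiles and oxidants modify KEAP1, NRF2 then accumulates, pairs with small MAF proteins and binds antioxidant response elements near genes of detoxifying and antioxidant enzymes. In epidermis, a tissue exposed to light and air, these enzymes belong to the chemical defence of keratinocytes (KCs) against oxidants.

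RNA of 4 cultures of KCs was sequenced, 2 from wildtype (WT) mice and 2 from Nfat5-/- knockout mice, which carry a whole-body deletion of the osmo-sensitive factor NFAT5. All mice were adults of the 129/sv strain, and WT mice were siblings of the Nfat5-/- mice. KCs came from tail epidermis and were grown without treatment in serum-free medium with low calcium, so both groups represent basal-type cultures and not layered skin. Right after naming the Nfat5-/- mice, the methods describe 129sv mice as smaller, with kidney atrophy and permanent hypernatremia. Whether the WT siblings shared these traits is not stated separately. The tails were shipped overnight on ice before use. The labels number the libraries as replicates 1 and 2 of each genotype and give no batch or date. The KCs are described as those of 2 sibling mice, WT and Nfat5-/-, and it is left unclear whether this means 2 of each genotype or 2 in all. The comparison asks whether RNA of the antioxidant genes differed between KCs of the 2 labelled genotypes.

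The libraries held between 16219445 and 23494436 reads in genes, and the 44 members took 0.842% to 0.884% of them. Reads of Nfat5 itself did not separate the labels. Its RPKM, the read number divided by exon length and library size, was 1.67 and 3.002 in WT and 2.02 and 2.78 under the Nfat5-/- label (edgeR log2 fold change 0.09 ± 0.26 SE, adjusted p = 0.913), and the deleted stretch is not given, so reads over the rest of the gene check nothing. Summed RPKM of 7 basal KC markers lay between 11076 and 12887. Summed RPKM of 8 fibroblast markers stayed at or below 1.33. The smooth muscle list (Acta2, Tagln, Myh11, Cnn1 and Des) summed to 184 and 151 RPKM in WT and to 518 and 819 RPKM under the Nfat5-/- label, with all 4 of its tested genes higher by the test used below and Des at or near 0. Of 8 suprabasal KC markers 2 were higher and of 4 tested melanocyte markers 1 was lower. The melanocyte list of 6 summed to 7.51 and 7.14 RPKM in WT against 2.05 and 2.94 under the Nfat5-/- label, and the suprabasal list to 65.0 and 31.2 against 61.7 and 95.5, most of it Sbsn (56.5 and 24.5 against 43.3 and 70.1). Of the 8 suprabasal markers 6 had higher RPKM in both libraries labelled Nfat5-/- than in both WT libraries, 1 had lower RPKM and Sbsn overlapped. The part of these differences in any result below was not tested. In RNA from a whole culture, fewer cells of a type and less RNA per cell cannot be told apart.

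An antioxidant response element contains the core TGACNNNGC. It was searched on both strands in the 250 bases before each RefSeq start on GRCm38.p6, any overlap with another motif allowed. The core occurred before 9 of 37 members with a promoter entry (24.3%) and before 3112 of 27025 genes in all (11.5%). The 9 were Nfe2l2, Gclm, Txnrd1, Prdx1, Gsta3, Gstm5, Mgst1, Sod1 and G6pdx. Hmox1, Gclc, Abcc1, Prdx6, Gsr, Gsta4 and Sod3 had no entry. A match is a run of letters and not a shown binding site. The windows below, read 5′ to 3′ on the strand that carries the core, show the core in capitals for NRF2's own gene, for 4 of the battery, peroxide and transferase genes described below, and for Mgst1, whose values are described below.
Nfe2l2 (chr2:75704885-75704913, minus strand, 240 bases before the start): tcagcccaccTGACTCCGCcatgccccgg
Gclm (chr3:122245413-122245441, minus strand, 134 bases before the start): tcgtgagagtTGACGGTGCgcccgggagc
Txnrd1 (chr10:82859104-82859132, minus strand, 92 bases before the start): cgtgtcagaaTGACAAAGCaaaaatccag
Prdx1 (chr4:116685456-116685484, minus strand, 133 bases before the start): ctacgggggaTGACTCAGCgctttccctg
Gstm5 (chr3:107895802-107895830, plus strand, 42 bases before the start): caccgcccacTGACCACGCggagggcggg
Mgst1 (chr6:138140461-138140489, minus strand, 56 bases before the start): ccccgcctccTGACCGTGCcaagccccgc
The windows of Txnrd1 and Mgst1 lie wholly, and that of Gstm5 partly, within the gene spans of the tables, since the RefSeq starts used there lie further downstream. The core of Prdx1 overlapped the AP-1 type motif TGANTCA, and none of the other 8 did.

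No member passed an adjusted p of 0.05 between the labelled genotypes when all reads of a gene were counted, and for most of the 41 members with enough reads to test the interval of the difference stayed within 1.5-fold. The exception by uniquely placed reads was Gsto1, an omega class glutathione transferase, at 1.55-fold (95% interval 1.30 to 1.84) in the libraries labelled Nfat5-/-. The test was edgeR's quasi-likelihood fit across all 12614 genes with enough reads, adjusted by the Benjamini-Hochberg method. It called 160 of them (1.27%; 0.943% higher and 0.325% lower), and 0 of 41 members. At an unadjusted p under 0.05 the fit held 10 of 41 members (24.4%, 6 with a higher and 4 with a lower value) beside 14.6% of all genes tested (8.17% higher and 6.47% lower). DESeq2 on the same counts called 6 members (Gsto1, Cat, Mgst1, Gstm2, Gclc and Gpx2) beside 3.39% of all genes, and edgeR with no filter on low counts called 8 (those 6, Gsr and Gsta4) beside 6.3% of all genes.

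The median log2 fold change of the members was 0.04, beside -0.01 over all genes tested, and their median size without sign was 0.14, beside 0.16. For 25 of 41 members (61.0%) the 95% interval stayed within 1.5-fold in either direction, beside 55.7% of all genes. RPKM did not overlap between the groups for 19 of the 41, 11 of them with higher and 8 with lower values under the Nfat5-/- label. Over all genes tested that share was 46.5% (21.6% higher and 25.0% lower), so the members' share was near the background. Gsta3, Gstt1 and Sod3 had at most 9 reads in any library and were not tested.

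**Figure D1:**
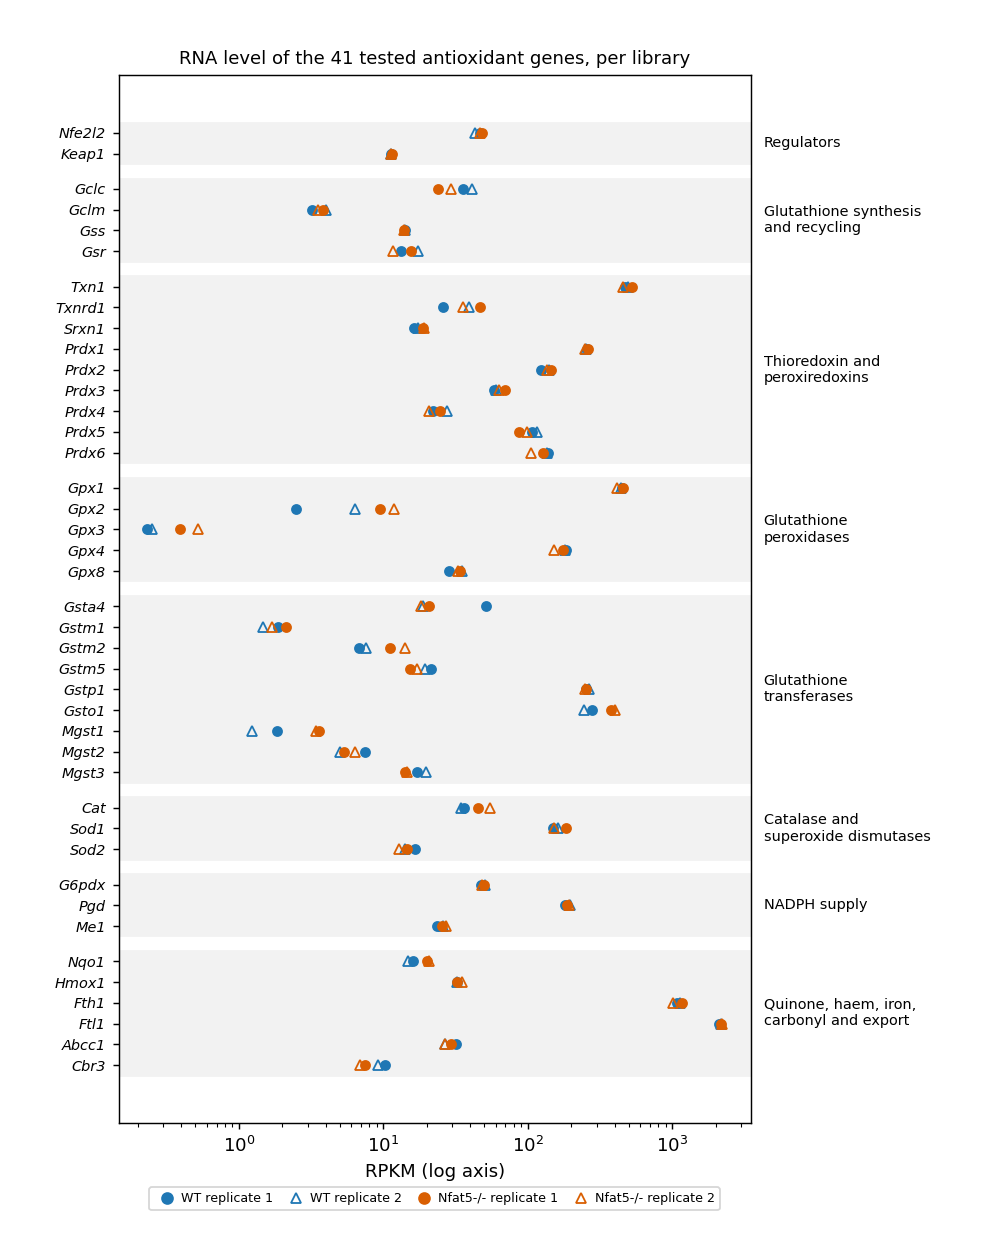
RPKM of the 41 tested members (horizontal log axis) in each of the 4 libraries, grouped by role. The ferritins Ftl1 and Fth1 sit highest at 1006 RPKM or more, Gpx3 lowest at under 1 RPKM, and the 4 libraries lie furthest apart for Gpx2, Mgst1, Gsta4, Gpx3 and Gstm2.

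The regulators were level across the libraries. Nfe2l2 had an RPKM of 47.0 and 43.2 (WT) against 48.5 and 47.0 (labelled Nfat5-/-). The groups overlapped by a narrow margin, with WT replicate 2 lowest. The log2 fold change was 0.09 ± 0.10 (SE, 95% interval -0.14 to 0.33, edgeR adjusted p = 0.724). Keap1, the adaptor that brings NRF2 to a ubiquitin ligase, measured 11.3 and 11.2 RPKM in WT replicates 1 and 2, against 11.5 and 11.3 RPKM under the Nfat5-/- label. The groups did not overlap but lay close, with a log2 fold change of 0.04 ± 0.10 (95% interval -0.20 to 0.27, edgeR adjusted p = 0.901). RNA level says nothing of the NRF2 protein, which is set mainly by degradation.

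The 4 genes of glutathione synthesis and recycling held 2 with an unadjusted p under 0.05, Gclc and Gsr. Gclc encodes the catalytic subunit of glutamate-cysteine ligase. Gclc (chr9:77754535-77794485) gave 35.9 and 41.1 RPKM in the WT cultures against 23.9 and 29.2 in those labelled Nfat5-/-. Both WT libraries lay above both others. The log2 fold change was -0.52 ± 0.14 (SE, 95% interval -0.84 to -0.20, edgeR adjusted p = 0.144, DESeq2 adjusted p = 0.0435). Gclm, which encodes the modifier subunit of the same enzyme, had an RPKM of 3.22 and 4.01 (WT) against 3.81 and 3.51 (labelled Nfat5-/-). The groups overlapped, and the log2 fold change was 0.04 ± 0.15 (edgeR adjusted p = 0.934). Whether the subunits differed from each other was not tested. Gss, glutathione synthetase, lay between 13.9 and 14.1 RPKM in every library. Gsr, which reduces oxidised glutathione, lay between 11.6 and 17.3 RPKM with overlapping groups. Its log2 fold change was -0.40 ± 0.16 on all gene reads, of which 34.9% fell in introns, and -0.16 ± 0.17 on exon reads (edgeR adjusted p = 0.323 and 0.737).

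The next role group holds the thioredoxin system and the peroxiredoxins, which remove hydrogen peroxide with electrons from thioredoxin. Its levels ran from 16.3 RPKM (Srxn1) to 531 RPKM (Txn1). For 8 of its 9 genes (88.9%, beside 55.7% of all genes tested) the 95% interval stayed within 1.5-fold, Txnrd1 being the exception. Txn1, thioredoxin itself, had the highest level of this group and measured 473 and 491 RPKM in WT replicates 1 and 2, against 531 and 460 RPKM under the Nfat5-/- label. The groups overlapped (log2 fold change 0.06 ± 0.10, edgeR adjusted p = 0.843). Txnrd1, the reductase that recharges thioredoxin, gave 25.9 and 39.0 RPKM in the WT cultures against 46.5 and 35.7 in those labelled Nfat5-/-. WT replicate 1 was low, and the other 3 libraries overlapped. Its log2 fold change was 0.35 ± 0.20 with a wide interval, -0.12 to 0.83 (edgeR adjusted p = 0.479). Srxn1, sulfiredoxin, which restores overoxidised peroxiredoxins, had an RPKM of 16.3 and 17.4 (WT) against 18.8 and 19.1 (labelled Nfat5-/-). The groups did not overlap, but the log2 fold change of 0.19 ± 0.10 missed the threshold (edgeR adjusted p = 0.445).

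The 6 peroxiredoxins ranged from Prdx4, at 20.9 to 27.4 RPKM, to Prdx1, at 251 to 260 RPKM. Prdx1 alone took 34.6% to 37.1% of their summed RPKM in each library, and Prdx2 lay between 123 and 145 RPKM with overlapping groups (log2 fold change 0.11 ± 0.11, edgeR adjusted p = 0.683). None of the 6 was called by edgeR on all gene reads or on uniquely placed exon reads, and their log2 fold changes on all gene reads ran from -0.23 for the mitochondrial and peroxisomal Prdx5 to 0.19 for the mitochondrial Prdx3. The 95% interval stayed within 1.5-fold for each of the 6. For Prdx5 and Prdx6 both libraries labelled Nfat5-/- lay below both WT libraries, and for Prdx3 both lay above (58.0 and 60.5 against 69.4 and 63.6 RPKM), with edgeR adjusted p of 0.418, 0.43 and 0.441.

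Among glutathione peroxidases, which use glutathione to reduce peroxides, 1 cytosolic and 1 lipid-protecting enzyme carried most of the RNA. Gpx1, the cytosolic form, measured 451 and 439 RPKM in WT replicates 1 and 2, against 459 and 418 RPKM under the Nfat5-/- label. The groups overlapped, and the log2 fold change was within 0.01 of 0 with a 95% interval of -0.23 to 0.23 (edgeR adjusted p = 0.995). Gpx1 took 66.2% to 67.8% of the summed RPKM of the 5 peroxidases, and Gpx4, which reduces lipid hydroperoxides in membranes, took 24.8% to 27.5%. Gpx4 lay between 153 and 183 RPKM (log2 fold change -0.14 ± 0.10), and Gpx8 between 28.7 and 35.0 RPKM.

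Gpx2, an epithelial glutathione peroxidase on chromosome 12 (chr12:76792333-76795554), had a positive fold with a wide spread between the WT libraries. It gave 2.48 and 6.35 RPKM in the WT cultures against 9.49 and 11.8 in those labelled Nfat5-/-, from 44, 150, 244 and 241 reads. WT replicate 1 was lowest, and both libraries labelled Nfat5-/- lay above both WT libraries. The log2 fold change was 1.26 ± 0.38 (SE, 95% interval 0.38 to 2.15, edgeR adjusted p = 0.19, DESeq2 adjusted p = 0.04997). It was 0.78 without WT replicate 1 (adjusted p = 0.178) and 2.12 without WT replicate 2 (adjusted p = 0.0037, both edgeR). All of Gpx2 lies inside Fntb on the opposite strand, and 6.93% of its exon reads were placed uniquely. On those the log2 fold change was 1.09 ± 0.53 (95% interval -0.14 to 2.32, edgeR adjusted p = 0.387). Fntb, a farnesyltransferase subunit, itself had an RPKM of 7.75 and 9.13 (WT) against 10.3 and 11.0 (labelled Nfat5-/-) (edgeR log2 fold change 0.34 ± 0.13, adjusted p = 0.304), so the value of Gpx2 is uncertain. Gpx3, the secreted form, stayed at or below 0.52 RPKM with 7 to 24 reads a library.

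**Figure D2:**
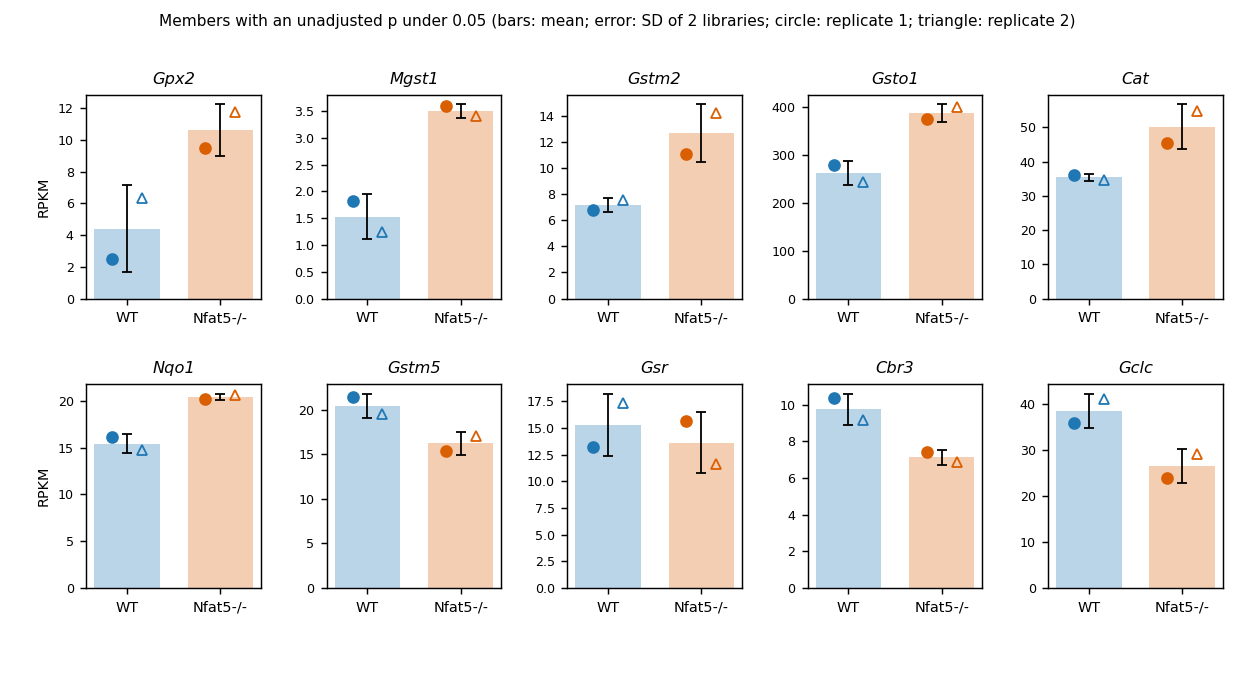
RPKM of the 10 members with an unadjusted edgeR p under 0.05, with bars for the mean and error bars for the SD of 2 libraries per labelled genotype. Gsto1, Mgst1, Gstm2, Cat, Nqo1 and Gpx2 have both orange points above both blue points, Gclc, Gstm5 and Cbr3 have them below, and Gsr overlaps; none passed the adjusted threshold on all gene reads.

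The glutathione transferases, which join glutathione to electrophiles, were the role group with the widest spread. Of 9 tested transferases only Gstp1 had a 95% interval within 1.5-fold in either direction. Log2 fold changes ran from -0.83 for Gsta4 to 1.18 for Mgst1. Gsto1 and Gstp1 together dominated the 8 cytosolic members, with 43.8% to 57.1% and 35.5% to 47.6% of their summed RPKM.

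Gsto1 (chr19:47854970-47864790, plus strand), an omega class enzyme that acts on glutathione adducts and dehydroascorbate, was the 1 member that rose on uniquely placed exon reads. It measured 279 and 244 RPKM in WT replicates 1 and 2, against 374 and 400 RPKM under the Nfat5-/- label. Both libraries labelled Nfat5-/- lay above both WT libraries. On unique exon reads the log2 fold change was 0.63 ± 0.11 (SE, 95% interval 0.38 to 0.88, edgeR adjusted p = 0.0333), in a fit that called 218 of 11680 genes (1.87%, or 1.4% in the higher direction) and 1 of 14 tested members of the 16 Gst, Prdx and ferritin genes set aside for this count. On all gene reads it was 0.58 ± 0.11 (95% interval 0.31 to 0.85, edgeR adjusted p = 0.0683). The call on unique reads was lost without WT replicate 2 (adjusted p = 0.0703), without replicate 1 of the libraries labelled Nfat5-/- (0.0905) or without replicate 2 of them (0.188, all edgeR), with log2 fold changes from 0.55 to 0.67. Of its exon reads 29.1% were unique. The gene lies whole inside Cfap43 on the opposite strand, which was at 1.41 to 1.80 RPKM in the 4 libraries.

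Mgst1 (chr6:138140316-138156755), a membrane-bound transferase and peroxidase, had low but uniquely placed reads. It gave 1.82 and 1.23 RPKM in the WT cultures against 3.59 and 3.41 in those labelled Nfat5-/-, from 63, 57, 174 and 132 reads. No overlap was seen between the groups, whose values differed 2.27-fold (95% interval 1.53 to 3.38). On the log2 scale this was 1.18 ± 0.24 SE (edgeR adjusted p = 0.0772, DESeq2 adjusted p = 0.0305). The edgeR call was made without WT replicate 1, at a log2 fold change of 1.49 and an adjusted p of 0.0236. Mgst1 and Gpx2 were also the members whose mean RPKM differed by at least 2-fold, without overlap and with at least 2 RPKM in the higher group, a rule that 2.28% of 9273 genes of that level met (1.67% in the higher direction). The related Mgst3, at 14.2 to 19.8 RPKM, and Mgst2, at 5.02 to 7.48 RPKM, had log2 fold changes of -0.33 ± 0.14 and -0.07 ± 0.27 (edgeR adjusted p = 0.346 and 0.941). For Mgst3 both libraries labelled Nfat5-/- lay below both WT libraries.

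Gstm2, a mu class enzyme on chromosome 3, had an RPKM of 6.81 and 7.58 (WT) against 11.1 and 14.2 (labelled Nfat5-/-). The groups did not overlap. The log2 fold change was 0.83 ± 0.19 on all reads and 0.84 ± 0.20 on unique exon reads, which made up 61.1% (edgeR adjusted p = 0.0965 and 0.0951, DESeq2 on all reads 0.0347). Gstm5, on the same chromosome, pointed the other way and measured 21.4 and 19.5 RPKM in WT replicates 1 and 2, against 15.3 and 17.1 RPKM under the Nfat5-/- label (log2 fold change -0.31 ± 0.13, edgeR adjusted p = 0.341). Gstm1 overlapped, at 1.46 to 2.11 RPKM. Whether the mu class genes differed from each other was not tested.

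Gsta4, an alpha class enzyme that acts on lipid aldehydes, turned on a single library. It gave 51.5 and 18.7 RPKM in the WT cultures against 20.6 and 18.2 in those labelled Nfat5-/-. WT replicate 1 stood apart, and the other 3 libraries lay together. The log2 fold change was -0.83 ± 0.40 with all libraries, 0.09 without WT replicate 1 and -1.39 without WT replicate 2 (edgeR adjusted p = 0.404, 0.925 and 0.00108). Gstp1, the pi class enzyme, was level at 249 to 265 RPKM (log2 fold change -0.02 ± 0.10), although 32.0% of its 59-base words also occur in transcripts of other genes, among them Gstp2. Gsta3 and Gstt1 stayed at or below 0.196 RPKM.

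**Figure D3:**
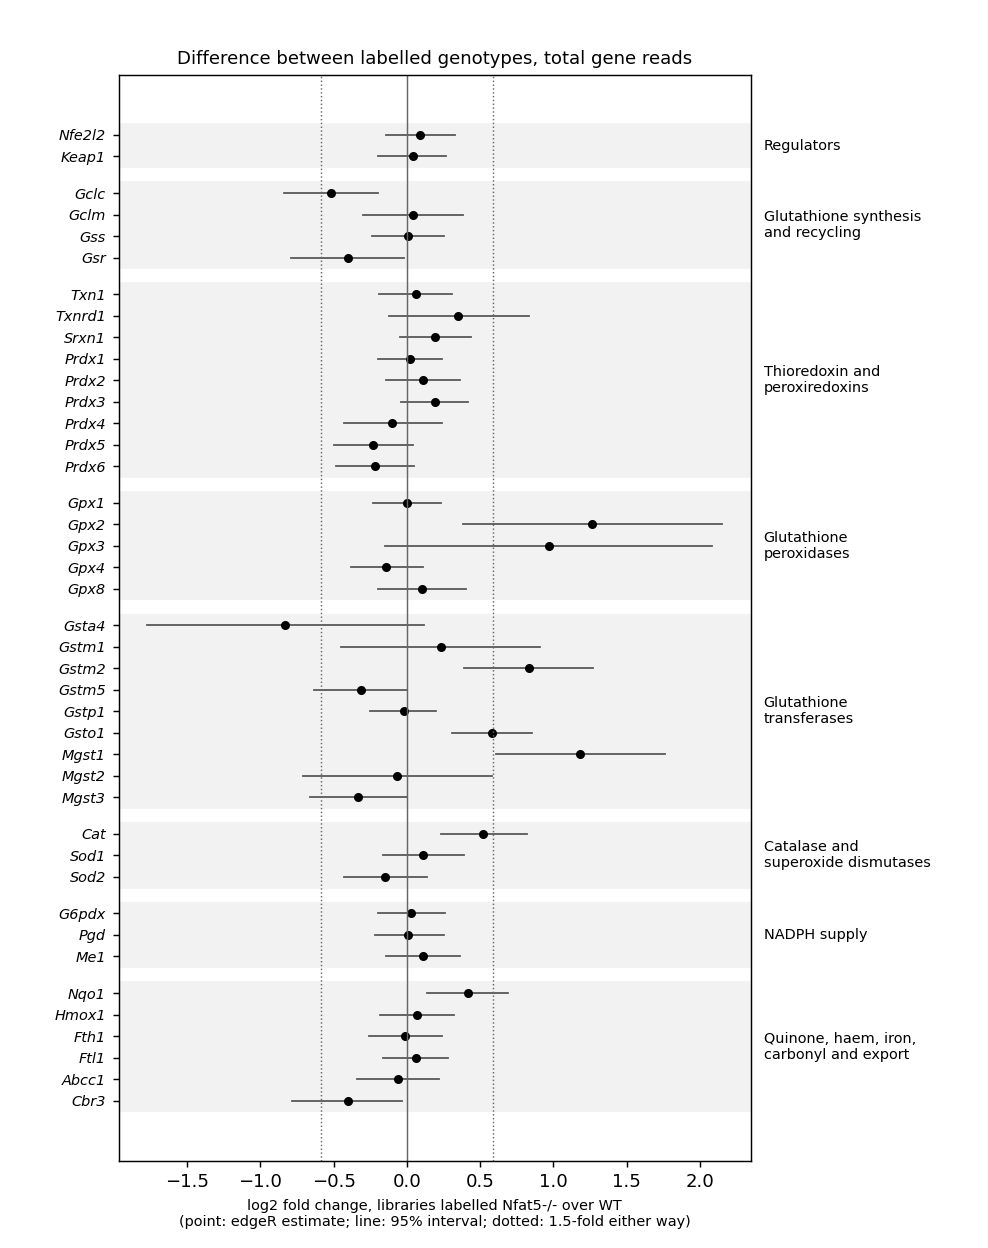
Log2 fold change of the 41 tested members (horizontal axis, libraries labelled Nfat5-/- over WT; points, edgeR estimates on all gene reads; lines, 95% intervals; dotted lines, 1.5-fold either way), grouped by role. Most points lie near 0, and the wide intervals belong to Gpx2, Gpx3, Gsta4, Gstm1, Mgst1 and Mgst2.

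Catalase, which splits hydrogen peroxide in peroxisomes, gave higher values in the libraries labelled Nfat5-/-, while the superoxide dismutases were close. Cat had an RPKM of 36.1 and 34.7 (WT) against 45.5 and 54.8 (labelled Nfat5-/-). The values lay apart by group. The log2 fold change was 0.52 ± 0.13 (SE, 95% interval 0.23 to 0.82, edgeR adjusted p = 0.112, DESeq2 adjusted p = 0.0205). Sod1, the cytosolic copper-zinc enzyme, measured 150 and 162 RPKM in WT replicates 1 and 2, against 184 and 151 RPKM under the Nfat5-/- label (log2 fold change 0.11 ± 0.12, edgeR adjusted p = 0.714). It took 90.1% to 92.7% of the summed RPKM of the 3 dismutases. Mitochondrial Sod2 lay between 12.8 and 16.5 RPKM, and the extracellular Sod3 stayed at or below 0.0242 RPKM.

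The NADPH-forming enzymes that supply both reductase systems were level. Pgd, of the pentose phosphate pathway, gave 182 and 197 RPKM in the WT cultures against 186 and 192 in those labelled Nfat5-/-. The groups overlapped (log2 fold change 0.01 ± 0.10, 95% interval -0.22 to 0.25, edgeR adjusted p = 0.975). G6pdx, the first enzyme of that pathway, lay between 47.3 and 50.4 RPKM, with 29.1% unique exon reads and an overlap with Ikbkg on the opposite strand. Me1, malic enzyme, lay between 23.5 and 27.1 RPKM. All 3 intervals stayed within 1.5-fold.

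Of the classic NRF2 battery outside these groups, Nqo1 gave higher values in the libraries labelled Nfat5-/- and Hmox1 did not separate. Nqo1, a quinone reductase (chr8:107388225-107403206), had an RPKM of 16.2 and 14.7 (WT) against 20.2 and 20.6 (labelled Nfat5-/-). The groups did not overlap, and the log2 fold change was 0.42 ± 0.12 (SE, 95% interval 0.14 to 0.69, edgeR adjusted p = 0.169). Its end lies 8707 bases from that of Nfat5, which is read towards it from the other strand. Hmox1, the inducible haem oxygenase, measured 32.5 and 32.6 RPKM in WT replicates 1 and 2, against 32.3 and 35.0 RPKM under the Nfat5-/- label. The ranges overlapped (log2 fold change 0.07 ± 0.11, 95% interval -0.18 to 0.32, edgeR adjusted p = 0.823).

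The ferritins, which store iron in a form that cannot feed radical chemistry, were the most abundant members and took 0.309% to 0.324% of all reads. Ftl1, the light chain, gave 2101 and 2172 RPKM in the WT cultures against 2176 and 2217 in those labelled Nfat5-/-. The groups lay apart, but by a narrow margin (log2 fold change 0.06 ± 0.09, edgeR adjusted p = 0.823). Of its exon reads 15.0% were unique, and on those the log2 fold change was 0.02 ± 0.10. Fth1, the heavy chain, lay between 1006 and 1166 RPKM. Abcc1, which exports glutathione conjugates, lay between 26.5 and 32.0 RPKM. Cbr3, a carbonyl reductase, had an RPKM of 10.3 and 9.15 (WT) against 7.42 and 6.85 (labelled Nfat5-/-), without overlap (log2 fold change -0.40 ± 0.16, edgeR adjusted p = 0.312).

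Counting only uniquely placed exon reads moved the log2 fold change by at most 0.1 for 39 of 41 tested members, the exceptions being Gsr and Gpx2. At least 95% of exon reads were unique for 33 of 44 members. Under 60% were unique for 7 (Gss, Gpx2, Gpx8, Gstp1, Gsto1, G6pdx and Ftl1), and 6 of these overlap another listed gene. No source states that strand was used in counting, so reads of overlapping genes cannot be told apart.

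**Figure D4:**
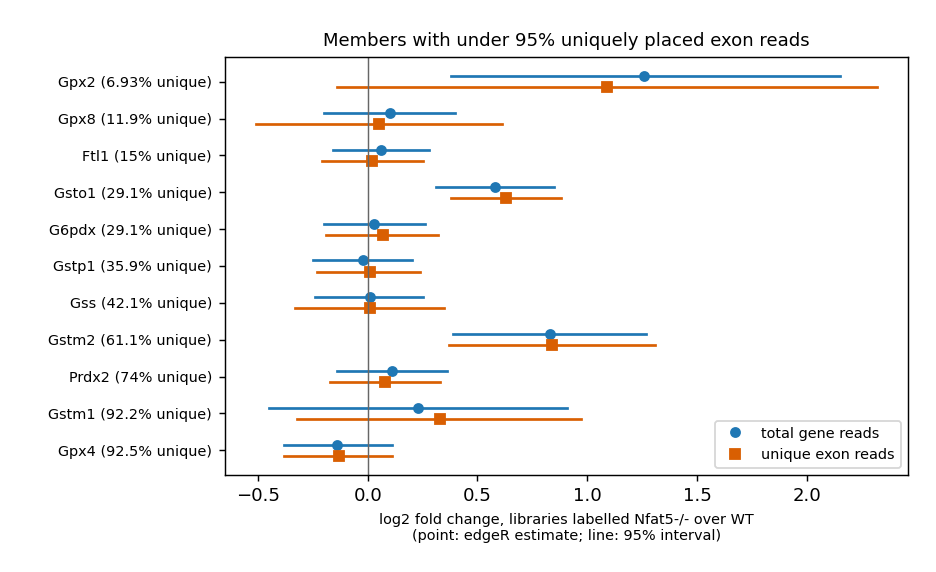
Log2 fold change (horizontal axis, libraries labelled Nfat5-/- over WT) of the 11 tested members with under 95% uniquely placed exon reads, from all gene reads (blue circles) and from unique exon reads (orange squares), with 95% intervals. Both estimates of a gene lie within 0.1 of each other except for Gpx2, and intervals widen most on unique reads for Gpx8, Gpx2 and Gss.

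Replicates of a group also differed among themselves. Over the 41 tested members the median log2 gap between replicates, without sign, was 0.14 in WT and 0.13 in the libraries labelled Nfat5-/-. The median difference between the groups was 0.14. That difference is between means of 2 libraries and the gap is between single libraries, so the 2 measures are unlike. Gpx2 and Gsta4 differed by over 1 log2 unit between the WT replicates, and no member did so between the libraries labelled Nfat5-/-. With 2 libraries a group, p-values measure the spread between these cultures only.

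Of 103 other genes of the same pathways found in the tables, 89 were tested and 2 rose, beside 0.943% of all genes, both redox regulators of the thioredoxin and glutaredoxin systems. Txnip (chr3:96557957-96561883), which binds and inhibits thioredoxin, measured 4.45 and 4.52 RPKM in WT replicates 1 and 2, against 11.1 and 12.6 RPKM under the Nfat5-/- label. Both libraries labelled Nfat5-/- lay far above both WT libraries (2.68-fold, 95% interval 2.14 to 3.34, edgeR adjusted p = 0.0114). Glrx (chr13:75839868-75850154), glutaredoxin, which removes glutathione from proteins, gave 15.1 and 15.6 RPKM in the WT cultures against 30.2 and 32.4 in those labelled Nfat5-/-. The groups did not overlap (2.07-fold, 95% interval 1.71 to 2.49, edgeR adjusted p = 0.0159). Both calls were lost without replicate 2 of the libraries labelled Nfat5-/- (adjusted p = 0.08 and 0.106), and that of Glrx also without replicate 1 of them (0.0652). Both were also lost with limma-trend on RPKM of all genes above 0 (adjusted p = 0.0915 and 0.0895). At an unadjusted p under 0.05 the list held 21 genes (23.6%), 13 with a higher and 8 with a lower value, beside 14.6% of all genes tested (8.17% higher and 6.47% lower). Its median log2 fold change was 0.03, beside -0.01 over all genes tested. The list was written with earlier results of these data known, so its shares describe it and test nothing.

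By subgroup, 0 of 14 NRF2 partners and regulators, 1 of 25 genes of glutathione supply and breakdown (Glrx), 1 of 12 of the thioredoxin system (Txnip), 0 of 27 NADPH and NRF2-linked enzymes and 0 of 11 oxidant sources passed the edgeR threshold. At an unadjusted p under 0.05 these subgroups held 1 (7.14%), 9 (36.0%), 3 (25.0%), 5 (18.5%) and 3 (27.3%) genes, beside 14.6% of all genes tested. Of the 25 tested genes of glutathione supply and breakdown, 7 had lower and 2 had higher values under the Nfat5-/- label at that threshold. Over all genes tested the shares were 6.47% lower and 8.17% higher. Cth, which makes cysteine from cystathionine, was chosen for mention after its values were seen, as were Osgin1 and Aldh3a1. Cth had an RPKM of 62.0 and 41.02 (WT) against 26.4 and 16.0 (labelled Nfat5-/-) (log2 fold change -1.27 ± 0.26, edgeR adjusted p = 0.0766), without overlap. The 5 of 27 NADPH and NRF2-linked enzymes at an unadjusted p under 0.05 all had higher values (18.5%, beside 8.17% of all genes tested). Of these, Osgin1 had an RPKM of 6.83 and 5.755 (WT) against 10.1 and 11.5 (labelled Nfat5-/-). Its log2 fold change was 0.78 ± 0.16 (edgeR adjusted p = 0.0732). Aldh3a1 had 0 reads in both WT libraries and 13 and 16 in those labelled Nfat5-/- (edgeR adjusted p = 0.0645).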

How the data were processed

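Polyadenylated RNA of 2 WT and 2 Nfat5-/- KC cultures was sequenced as 59-base single reads. Per the methods, the authors trimmed the reads and aligned them to GRCm38 in CLC Genomics Workbench with default RNA-Seq settings. The deposited read counts per gene (all, exon, intron and unique exon reads) are not normalized. The authors also deposited RPKM values, with decimal commas, which are other than counts and were used for levels, for the 2-fold rule (no test) and for the limma alternatives. How CLC assigned reads with several possible sites is not stated beyond the default settings.

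Counts of all 4 libraries were fitted with edgeR 4.0.16 in R 4.3.3 (filterByExpr, TMM, quasi-likelihood, genotype alone, Benjamini-Hochberg adjustment over all genes, two-sided). The fit on total gene reads was the main one, and unique exon reads were used for 16 Gst, Prdx and ferritin genes. DESeq2 1.42.0 and limma 3.58.1 on log2(RPKM + 1) or log2(RPKM + 0.1) were alternatives. The fit was tested on simulated data. A floor of 3 reads lay between 0.128 and 0.185 CPM, is given for scale and filtered no edgeR fit. It concerns counting error only, and the libraries had no molecular identifiers. All members are named, with full values for those past a threshold, the regulators, the NRF2 battery and the highest of each role. Members and lists were chosen with earlier results of these data known. Promoter sequences are from RefSeq on GRCm38.p6. Same-numbered replicates did not deviate together (correlation of deviations -0.0652 over 12614 genes), so the numbers were not taken as pairs.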

Additional observations from a re-analysis of the deposited data

How the results depend on the processing

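The count of members called by edgeR was 0, and it was 8 with no filter on low counts, 6 with DESeq2, 1 on unique exon reads (Gsto1), 1 of 40 with limma-trend on log2(RPKM + 1) (Mgst1, beside 161 of 10261 genes) and 3 at an adjusted p under 0.1 (Gstm2, Mgst1 and Gsto1). Leaving out 1 library gave 0 to 2, Mgst1 and Gsto1 without WT replicate 1 (beside 268 of 13047 genes) and Gsta4 and Gpx2 without WT replicate 2 (beside 478 of 12911). The copy-family count of 1 on unique exon reads became 3 with no filter, 0 on total gene reads and 2 at an adjusted p under 0.1, with 0 to 1 when a library was left out (Gsto1 without WT replicate 1, Gsta4 with a lower value without WT replicate 2, and 0 without either of the others). The related genes (2 called) gave 14 with no filter, 6 with DESeq2, 4 on unique exon reads, 6 at an adjusted p under 0.1 and 0 to 10 with a library left out. All genes (160 called) gave 1137, 427 and 364 with no filter, DESeq2 and an adjusted p under 0.1, and 16 to 478 with a library left out. Limma-trend over genes of any RPKM called 0 of 16176 genes and 0 related genes, with 1937 and 18 at an unadjusted p under 0.05. The RPKM 2-fold count of 2 members was 1 with a floor of 5 RPKM, 4 with no floor, 1 from unique exon reads and 1 to 2 with a library left out. With the replicate block, edgeR called 0 members, 1 copy-family member, 3 related genes (Cth added) and 132 of all genes, each within 1.5 times the main count.

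Of 288 values of 18 named genes under alternatives, 252 kept direction and side of the threshold, 15 passed it, 5 lost it and 16 changed sign, to values from -0.097 to 0.049. With 1 library left out, log2 fold changes ran from -0.0059 (without replicate 2 of the libraries labelled Nfat5-/-) to 0.14 for Hmox1, from -0.097 (without WT replicate 1) to 0.2 for Gclm, from -0.029 to 0.14 for Txn1 and from -0.012 to 0.23 for Sod1 (both lowest without replicate 1 of the libraries labelled Nfat5-/-), from -0.055 to 0.049 for Gpx1 and from -0.032 to 0.063 for Pgd. Gclm was also at -0.026 without replicate 1 of the libraries labelled Nfat5-/-. Gpx1 turned to 0.0022 with RLE factors, 0.0013 at 10 counts in every library and 0.0023 with DESeq2. Pgd turned to -0.0098 with library totals and to -0.0052 in the 3 limma-trend fits. The cause was not tested. Depth limits Gsta3, Gstt1, Sod3 and Gpx3, and 2 libraries a group limit every test.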
